A study of Homo sapiens with 6 samples.

Results

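Toll-like receptors and inflammatory caspases are 2 arms of innate immune sensing, and 10 genes of these arms are described here: the receptors TLR2, TLR3, TLR4 and TLR6, the co-receptor CD14, the adaptors MYD88 and TICAM1, and the caspases CASP1, CASP4 and CASP5. They were chosen by symbol, with earlier results of these data known. All 10 were present among the 58219 genes of the deposited table, with 0 repeated symbols. RNA came from IMR90 cells, a line of diploid fibroblasts from human lung that divides for a limited number of passages. All cells carried ER-RAS (RASG12V in the series' design text), oncogenic RAS joined to a piece of the oestrogen receptor so that 4-hydroxytamoxifen (4OHT) switches it on. Of 6 libraries, 3 were from cells kept in 100 nM 4OHT for 72 h, which the labels call committed to senescence, and 3 were from cells kept in it for 30 h, called uncommitted controls. The sample titles give these times as 3 days and 1.5 days, so the shorter time differs between the sources. The labels do not state the promoter of the construct or whether separate cultures were used for the replicates, and p-values therefore measure only the spread between these libraries, possibly technical. Commitment and time in 4OHT differ together between the groups and cannot be told apart.

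Toll-like receptors are membrane proteins that recognise microbial molecules and products of damaged cells. TLR2 pairs with TLR1 or TLR6 to sense lipoproteins, TLR4 senses lipopolysaccharide with the help of CD14 and LY96, and TLR3 senses double-stranded RNA in endosomes. Signals pass through the adaptor MYD88 to IRAK kinases and NF-kB, or, from TLR3 and TLR4, through TICAM1 (also called TRIF) to TBK1 and interferon regulatory factors. Caspase 1 is activated in inflammasomes and cleaves the precursor of interleukin 1 beta, while caspases 4 and 5 bind lipopolysaccharide in the cytosol and cleave gasdermin D. In fibroblasts made senescent by RAS, TLR2 and caspase 4 have been described as regulators of the secretory phenotype, the release of cytokines by senescent cells.

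Each library held 13221152 to 15703544 reads in genes. Along principal component 1, with 81.3% of the variance, the groups lay apart, and along component 2, with 6.99%, both libraries of replicate C lay apart from the others. All 8 fibroblast markers examined were detected, with summed normalised counts of 55811 to 65824 at 72 h and 168828 to 176645 at 30 h. Much of each sum was VIM, with means of 40009 at 72 h and 96300 at 30 h. Every marker had a lower mean at 72 h, but to unlike degrees: DCN had 944 ± 102 and 1732 ± 690, and LUM 380 ± 52.0 and 599 ± 200 (mean ± SD, 72 h then 30 h). Sums for lymphocyte markers ran from 0 to 1.74 at 72 h and 1.02 to 7.80 at 30 h. Endothelial markers gave sums between 11.2 and 20.9 at 72 h and between 6.10 and 14.8 at 30 h. Epithelial markers summed to 570 to 681 at 72 h and 723 to 822 at 30 h, mostly from the keratin gene KRT18. Another keratin gene, KRT19, had 1, 40 and 1 reads in the 72 h libraries A, B and C and 5, 43 and 1 in those of 30 h.

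Within this set the adaptor MYD88 rose slightly, CASP1 and CASP4 fell, and the receptors were expressed at very low levels, TLR6 excepted. Of the 10 genes, 5 reached 10 normalised counts in 3 or more libraries and entered the test, a limma fit over 13315 genes adjusted by Benjamini-Hochberg and read at 0.05. Of these 5, 1 rose (MYD88), 2 fell (CASP1 and CASP4) and 2 did not pass (TLR6 and TICAM1). In the same fit 48.6% of all tested genes were called, 23.6% as higher and 25.0% as lower at 72 h, so 3 of 5 is near the background. The same 3 genes were called with edgeR, where 48.8% of genes were called and 23.7% were higher. The groups did not overlap for 3 of the 5 (1 higher and 2 lower at 72 h), against 59.2% of all tested genes (29.3% higher and 29.9% lower). The other 5, TLR2, TLR3, TLR4, CD14 and CASP5, are given by their reads. In bulk RNA, fewer cells expressing a gene and less of its RNA per cell cannot be told apart.

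**Figure D1:**
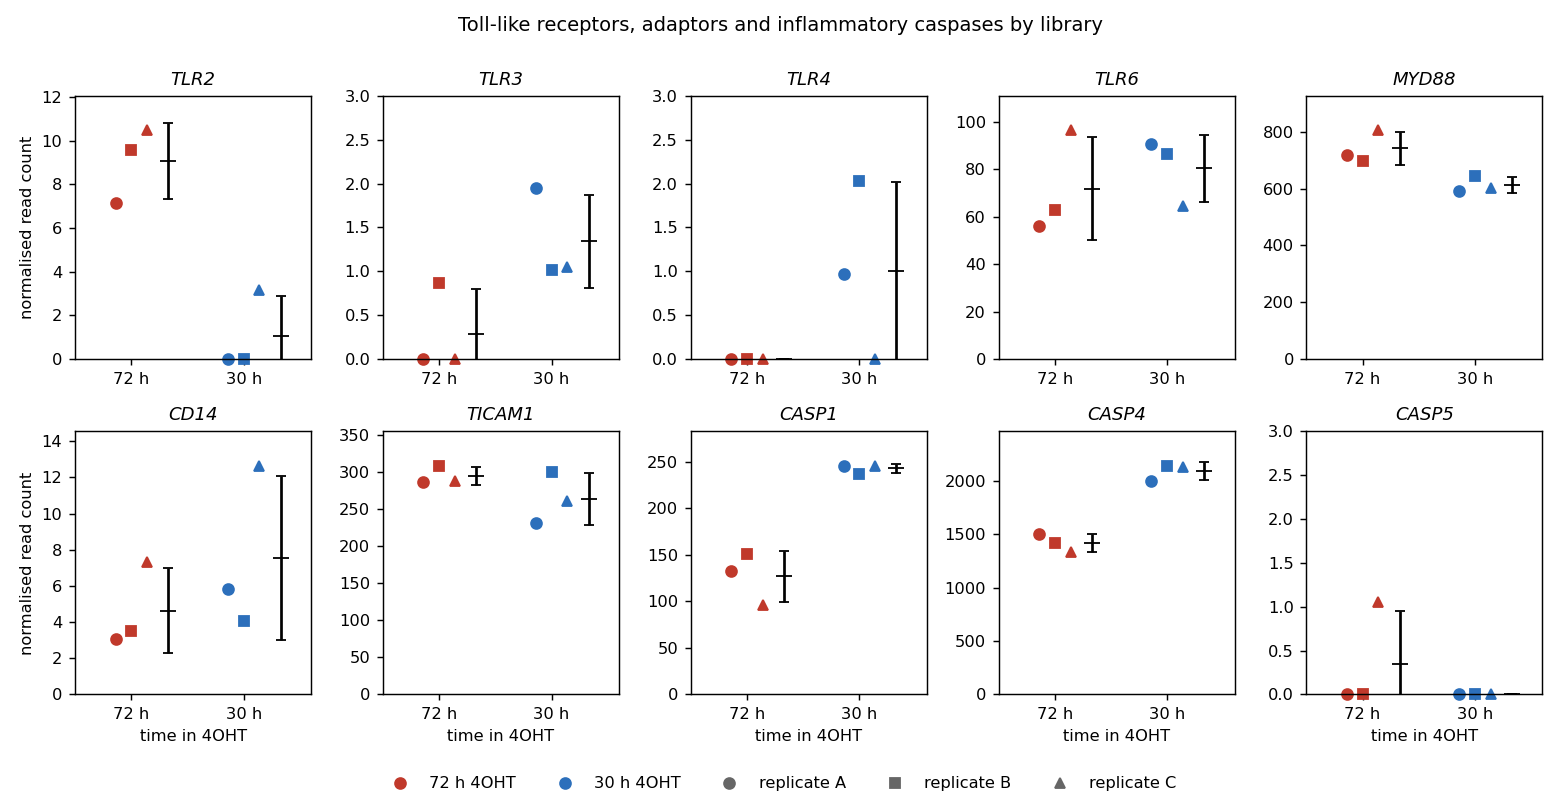
Normalised read counts (linear axes from 0, scaled for each gene) of the 10 genes in each library at 72 h (red) and 30 h (blue), with the mean and SD of each group in black (n = 3; bars that would pass below 0 end there). The groups are apart for MYD88, CASP1 and CASP4, TLR2 reaches 7.15 to 10.5 at 72 h, and TLR3, TLR4 and CASP5 have at most 2.03.

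Levels are compared between genes only per kilobase of exon, as normalised counts per kb over the union of GENCODE 29 exons. CASP4 was the highest on this scale, at 195 ± 11.7 per kb at 72 h and 288 ± 11.3 per kb at 30 h (mean ± SD, n = 3 each), and over the 6 libraries its level lay above that of 81.3% of tested genes. MYD88 had 186 ± 14.2 per kb at 72 h and 153 ± 6.95 per kb at 30 h. CASP4 and MYD88 overlapped in level at 72 h, while at 30 h every library had more CASP4 than any had MYD88. TICAM1 followed at 110.02 ± 4.62 per kb at 72 h and 98.7 ± 13.1 per kb at 30 h. CASP1 had 34.3 ± 7.49 per kb at 72 h and 65.6 ± 1.40 per kb at 30 h, in each library less than TICAM1.

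TLR6 had 11.9 ± 3.58 per kb at 72 h and 13.3 ± 2.34 per kb at 30 h and was the most abundant Toll-like receptor of the 4. CD14 had 2.46 ± 1.25 per kb at 72 h and 3.99 ± 2.40 per kb at 30 h. TLR2 had 1.74 ± 0.331 per kb at 72 h and 0.202 per kb at 30 h, where 2 libraries had none. CD14 and TLR2, neighbours in the order, overlapped at 72 h but not at 30 h. From MYD88 down to CD14, neighbours in the order did not overlap in either group. TLR3, CASP5 and TLR4 averaged 0.121, 0.110 and 0.0378 per kb over all libraries and cannot be ordered at this depth. The gene models of TLR2 and TLR4 in the deposited table differ in extent from those of GENCODE 29, so their values per kb are approximate.

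**Figure D2:**
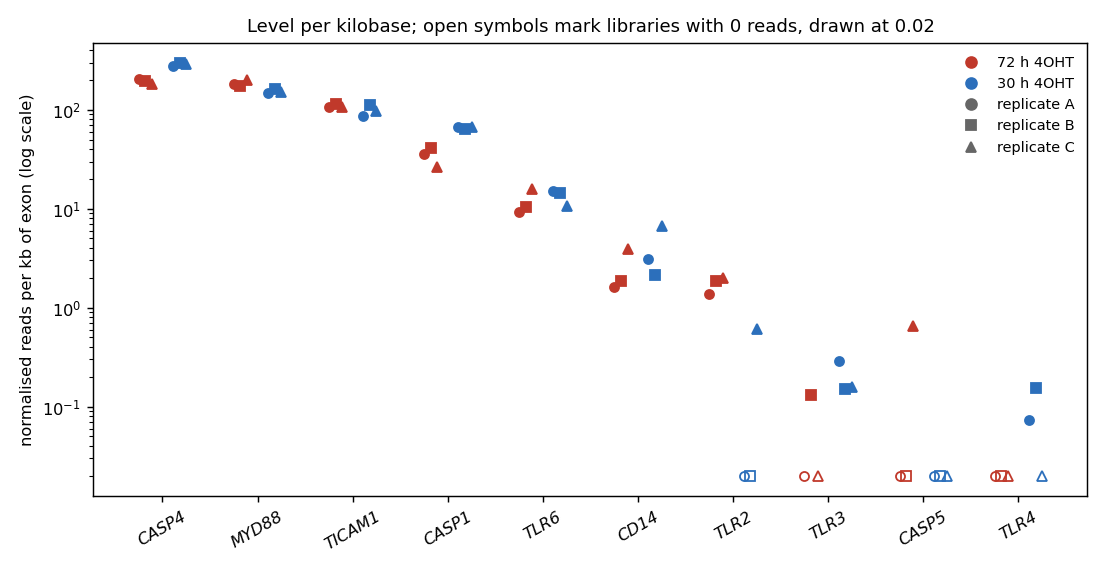
Level of each gene per kilobase of exon (log axis) in each library at 72 h (red) and 30 h (blue), ordered by the mean over the 6 libraries; open symbols at 0.02 are libraries with 0 reads. CASP4, MYD88, TICAM1, CASP1, TLR6 and CD14 have reads in all 6 libraries, while TLR2 and TLR3 have them in 4, CASP5 in 1 and TLR4 in 2.

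TLR2 (ENSG00000137462.6, chromosome 4, 153701500 to 153705699 on GRCh38) was nearly undetected at 30 h and present at a low level at 72 h. It had 7, 11 and 10 reads in the 72 h libraries A, B and C, against 0, 0 and 3 reads in the 30 h libraries. Every 72 h library held more TLR2 reads than any 30 h library, and the only reads at 30 h were in replicate C. The summed 28 reads at 72 h against 3 reads at 30 h gave a ratio of 8.97, with an exact 95% interval of 2.77 to 46.1 that covers counting error only. TLR2 missed the filter on low values, so it was not among the tested genes.

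In a fit without that filter, limma gave TLR2 a log2 change of 2.63 ± 0.562 (SE) with adjusted p = 2.39e-05, and edgeR, also without a filter, 3.01 with adjusted p = 0.000367. In those fits 12.6% of 26826 genes were called as higher at 72 h. Without the filter the limma adjusted p of CASP1 was 9.89e-12 and that of CASP4 1.92e-15, far below 0.000706 and 6.69e-05 with it. For TLR6 and TICAM1 it was higher than with the filter, at 0.577 and 0.336. The TLR2 p-values therefore cannot be compared with those of the filtered fit. The authors' deposited table gives TLR2 a log2 change of 3.15 with adjusted p = 0.0238, where 32.3% of its genes were called and 15.4% were higher. An exact two-sided permutation test over the libraries gave p = 0.1, the smallest that 3 against 3 can give. Of 12 markers of monocytes and macrophages, cells rich in TLR2, 9 had a read. Their normalised counts summed to 137 to 143 at 72 h and 28.4 to 40.0 at 30 h, but the markers did not move as a set. Most of that sum came from CSF1R (50, 66 and 56 reads at 72 h, 10, 18 and 20 at 30 h) and LAPTM5 (67, 77 and 62 reads at 72 h, 17, 2 and 5 at 30 h). FCER1G had 12, 11 and 8 reads at 72 h and 1, 3 and 1 at 30 h. CD53 went the other way, with 0, 0 and 1 reads at 72 h and 6, 4 and 0 at 30 h. LYZ, ITGAM, SPI1 and CD163 had at most 4 reads in any library. TYROBP, AIF1 and MARCO had 0 reads in all 6 libraries, and PTPRC, the pan-leukocyte gene of CD45, had 2, 4 and 5 reads at 72 h and 3, 0 and 1 reads at 30 h. The part of these genes in the TLR2 result was not tested.

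TLR6 (ENSG00000174130.12, chromosome 4, 38823715 to 38856817), a partner of TLR2, had 56.2, 62.8 and 96.5 normalised counts in the 72 h libraries A, B and C and 90.7, 86.4 and 64.3 in the 30 h libraries. The groups overlapped. Replicate C ran the other way from replicates A and B: its 72 h library was the highest of all 6 and its 30 h library the lowest of its group. The log2 change was -0.19 ± 0.222 (SE) with limma adjusted p = 0.523. Without both libraries of replicate C, a choice made after the data were seen, it was -0.57 with adjusted p = 0.0112. Of the distinct 50-base words in TLR6 transcripts, 4.10% also occur in transcripts of its neighbour TLR1, so a small part of its reads is uncertain.

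TLR3 (chromosome 4, 186069152 to 186088069) had 0, 1 and 0 reads at 72 h and 2, 1 and 1 reads at 30 h. With 1 read against 4 reads in all, the ratio of 0.240 had a counting interval of 0.00488 to 2.43, so no difference was detectable at this depth. TLR4 (chromosome 9, 117704332 to 117716871) had 0 reads in the 72 h libraries and 1, 2 and 0 reads in the 30 h libraries. A count of 0 in the 42467358 reads at 72 h allows for up to 3 reads. CD14 (ENSG00000170458.13, chromosome 5, 140631728 to 140633701), which hands lipopolysaccharide to TLR4, had 3, 4 and 7 reads at 72 h and 6, 4 and 12 reads at 30 h. The CD14 groups overlapped, and the ratio of 0.611 had a counting interval of 0.289 to 1.25. In each group the CD14 library with the most reads was that of replicate C.

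MYD88 (ENSG00000172936.12, chromosome 3, 38138478 to 38143022), the adaptor of every Toll-like receptor but TLR3, had 719, 698 and 806 normalised counts in the 72 h libraries A, B and C and 589.8, 643 and 603 in the 30 h libraries. Each 72 h library was higher than each 30 h library. MYD88 rose 1.21-fold, a log2 change of 0.27 ± 0.0735 (SE) with limma adjusted p = 0.0117. The call was kept without each library in turn, with the highest adjusted p, 0.0498, without 30 h replicate A. TICAM1 (ENSG00000127666.9, chromosome 19, 4815932 to 4831704), the adaptor of the other branch, had 287, 309 and 287 normalised counts at 72 h and 231, 301 and 260.5 at 30 h. The TICAM1 groups overlapped, and its log2 change was 0.16 ± 0.106 (SE) with adjusted p = 0.231.

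The test of the difference between the adaptors is the ratio of MYD88 to TICAM1 within a library. It was 2.51, 2.26 and 2.80 at 72 h and 2.55, 2.14 and 2.32 at 30 h. The ratios overlapped, and the difference of 0.11 on the log2 scale had p = 0.5 in an exact two-sided permutation test, so a difference in response between MYD88 and TICAM1 was not shown.

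The promoters of both adaptors are shown because they hold matches to motifs of 2 transcription factor families among those that Toll-like receptors activate. The sequences are the 250 bases before the RefSeq gene start on GRCh38.p14, read 5′ to 3′ on the gene's strand (chr3:38138411-38138660, plus strand, and chr19:4831713-4831962, minus strand), with the match in capitals.
MYD88: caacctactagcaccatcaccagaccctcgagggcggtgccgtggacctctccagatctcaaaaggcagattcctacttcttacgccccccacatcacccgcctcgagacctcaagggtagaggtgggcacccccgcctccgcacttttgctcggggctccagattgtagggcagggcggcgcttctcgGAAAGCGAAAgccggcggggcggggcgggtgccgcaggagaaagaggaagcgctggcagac
TICAM1: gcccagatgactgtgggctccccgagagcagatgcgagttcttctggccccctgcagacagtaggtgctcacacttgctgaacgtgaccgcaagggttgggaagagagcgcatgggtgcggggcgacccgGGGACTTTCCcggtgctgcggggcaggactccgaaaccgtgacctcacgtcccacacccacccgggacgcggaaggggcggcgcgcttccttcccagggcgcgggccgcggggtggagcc
The capitals mark the IRF motif (GAAA, 2 bases of any kind, GAAA) 61 bases before the RefSeq start of MYD88. They also mark the consensus kappaB motif of NF-kB 120 bases before the RefSeq start of TICAM1. The RefSeq start of MYD88 lies downstream of the gene start given above (38138478), so this IRF match is inside the gene by those coordinates. Windows of 250 bases before to 50 bases after the start were searched on both strands for 9 of the 10 genes. The kappaB motif occurred in 1 of 9 (TICAM1), against 11.3% of 35116 promoters of that length. The AP-1 motif TGANTCA occurred in 1 of 9 (CD14), against 7.71%, and the IRF motif in 3 of 9 (TLR3, MYD88 and CASP5), against 3.57%. A match is a run of letters and not a bound site. Among these genes the kappaB match was in the window of a gene that did not pass. The IRF matches were in the windows of 1 gene that rose and 2 with almost no reads, and that of TLR3 spanned the start.

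CASP1 and CASP4 both fell. CASP1 (ENSG00000137752.23, chromosome 11, 105025443 to 105035250), the caspase of the canonical inflammasome, had 133, 151 and 96.5 normalised counts in the 72 h libraries A, B and C and 246, 237 and 246 in the 30 h libraries. All 3 libraries of 72 h lay below all 3 of 30 h, and the spread was wider at 72 h, with replicate C the lowest. The 30 h level was 1.94 times that of 72 h, a log2 change of -0.96 ± 0.153 (SE) with limma adjusted p = 0.000706. CASP4 (ENSG00000196954.13, chromosome 11, 104942866 to 104969436), the sensor of cytosolic lipopolysaccharide, had 1498, 1418 and 1328 normalised counts at 72 h and 1993, 2139.6 and 2129 at 30 h. The CASP4 groups did not overlap either, and its log2 change was -0.56 ± 0.0611 (SE) with adjusted p = 6.69e-05. CASP5 (ENSG00000137757.10, chromosome 11, 104994235 to 105023168), the closest relative of CASP4, had 0, 0 and 1 reads at 72 h and 0 reads in each 30 h library.

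The ratio of CASP1 to CASP4 normalised counts was 8.87%, 10.6% and 7.27% in the 72 h libraries and 12.3%, 11.1% and 11.5% in the 30 h libraries. Every ratio at 72 h was lower than every ratio at 30 h, by 0.40 on the log2 scale on average. The exact two-sided permutation p was 0.1, the smallest that 3 against 3 can give, and 0.2 after adjustment over the 2 ratios that could be computed on the values as deposited. Ratios of TLR2 to TLR4 and to TLR6 were also planned, but TLR2 or TLR4 had 0 reads in several libraries, so those ratios would be set by an added count and are not given. With 1 added to all values, the adjusted p of CASP1 to CASP4 over all 4 ratios was 0.133.

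CASP4 and CASP5 lie next to each other on the minus strand, and their promoters are shown because the first gene is the most abundant of the 10 and the second has almost no reads. The 250 bases before each RefSeq start on GRCh38.p14 are chr11:104968575-104968824 and chr11:105023169-105023418, with matches to the IRF motif in capitals. The CASP4 window lies wholly inside the gene by the coordinates given above (104942866 to 104969436), since its RefSeq start differs from theirs.
CASP4: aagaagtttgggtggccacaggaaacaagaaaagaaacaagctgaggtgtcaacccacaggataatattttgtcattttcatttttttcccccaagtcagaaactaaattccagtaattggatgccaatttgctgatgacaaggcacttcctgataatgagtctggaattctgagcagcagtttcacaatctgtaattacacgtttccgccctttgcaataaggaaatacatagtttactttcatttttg
CASP5: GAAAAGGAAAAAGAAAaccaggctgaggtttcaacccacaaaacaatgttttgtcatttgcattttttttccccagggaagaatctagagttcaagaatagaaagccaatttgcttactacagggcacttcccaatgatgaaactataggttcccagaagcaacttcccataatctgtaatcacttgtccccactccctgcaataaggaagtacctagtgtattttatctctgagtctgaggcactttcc
The capitals in CASP5 are 2 overlapping matches to the IRF motif, 250 and 244 bases before the start. In a global alignment CASP4 and CASP5 had 170 identical bases of 250, while the other 35 pairs among the 9 promoters had 85 to 125. The search found no match to the 3 motifs in the CASP4 window, which says only that those letters are not in it.

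The caspases of the set belong to a cluster of related genes on chromosome 11, and CASP4, CASP1 and CARD16 in it fell. The window from CASP12 to CARD18 (104885718 to 105139726) was chosen after the values were seen and holds 10 genes of the table, of which 4 were tested: CASP12, CASP4, CASP1 and CARD16. Each of the 4 fell, in a fit where 25.0% of all tested genes fell. As the window was picked with the values in view, this count is not a test of the cluster. CASP12 reached 10 normalised counts only in the 30 h libraries, so it entered the test through the group where it was higher, while the other 3 genes passed the filter in both groups. CARD16, a decoy with a caspase recruitment domain that inhibits caspase 1, had 59.3, 38.4 and 39.9 normalised counts in the 72 h libraries and 152, 154 and 226 in the 30 h libraries. Its log2 change was -1.93 ± 0.212 (SE) with limma adjusted p = 7.69e-05. CASP12, an inactive caspase gene in most people, had 1, 6 and 2 reads at 72 h and 13, 15 and 27 reads at 30 h, a log2 change of -2.46 ± 0.493 (SE) with adjusted p = 0.00251. Both groups stayed apart for these genes.

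Of the other 6 genes of the window, 3 had no read in any library, and CASP5, CARD18 and the pseudogene listed as RP11-693N9.2 had at most 3 in any library. Of the distinct 50-base words in CASP1 transcripts, 4.37% also occur in CARD16, and 10.6% of those in CARD16 transcripts also occur in CASP1, so the split of reads between CASP1 and CARD16 is uncertain.

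**Figure D3:**
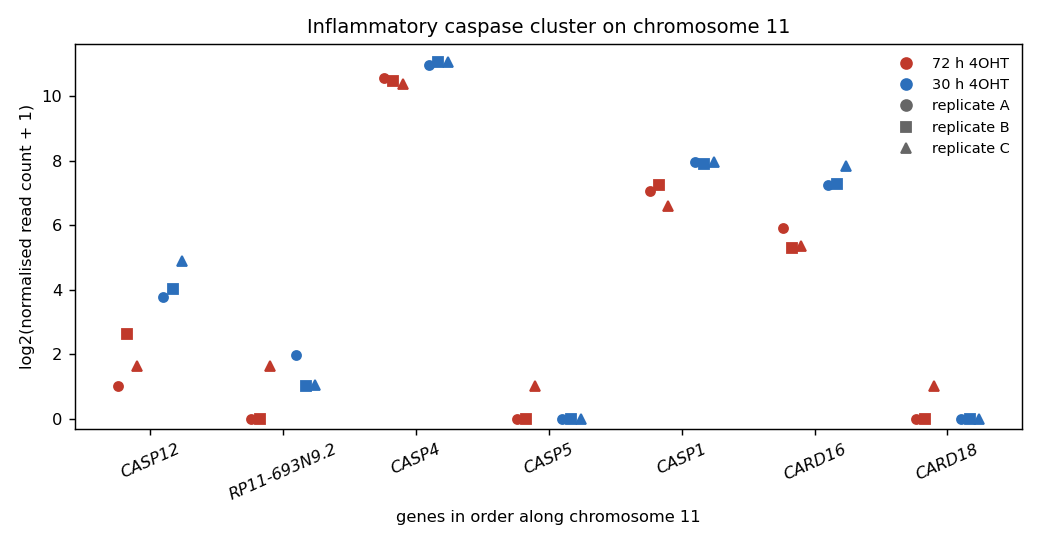
Levels (log2 of normalised read count plus 1) of the genes with a read in the caspase cluster, in their order along chromosome 11, in each library at 72 h (red) and 30 h (blue). CASP12, CASP4, CASP1 and CARD16 are lower in all 3 libraries of 72 h than in any of 30 h, and CASP5 and CARD18 have 1 read each.

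By the rule on likeness, the 3 genes whose pattern over the 6 libraries came nearest to that of CASP1 were MCM10, NRGN and SAMHD1. MCM10 acts at DNA replication forks, NRGN encodes neurogranin and SAMHD1 an enzyme that breaks down nucleotides for DNA synthesis. The root mean square difference of their centred log2 values from those of CASP1 was 0.0379, 0.0532 and 0.0581. MCM10 had 229.5 ± 51.2 normalised counts at 72 h and 446 ± 16.4 at 30 h, and like CASP1 its lowest library was replicate C at 72 h. SAMHD1 had 416 ± 79.8 at 72 h and 776 ± 26.9 at 30 h.

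Beyond the 10 genes, 4 lists of pathway genes, chosen with earlier results of these data known, were read off the same fit. Of 77 genes listed, 53 were tested, and 24 rose, 13 fell and 16 did not pass. That is 45.3% rising and 24.5% falling, against 23.6% and 25.0% of all tested genes. The median log2 change was 0.22 over these 53 genes, against 0.0051 over all tested genes. Of the 24 rises, 4 were of genes that passed the filter through the 72 h libraries and not through those of 30 h, so that they entered where they were high (CD36, IRF7, NLRP3 and GBP2).

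Among 22 receptors, co-receptors, chaperones and ligands of Toll-like receptors, 10 were tested, and 3 rose, 2 fell and 5 did not pass (median 0.01). That is 30.0% rising and 20.0% falling, near the 23.6% and 25.0% of all tested genes. TLR7, TLR8, TLR9 and S100A9 had no read in any library. CD36, a scavenger receptor that works with TLR2 and TLR6, had 50.9 ± 8.56 normalised counts at 72 h and 7.73 ± 6.03 at 30 h and rose 7.77-fold (limma adjusted p = 0.0133), though at 30 h it had only 13, 1 and 9 reads. UNC93B1, which carries TLR3 to endosomes, rose 1.31-fold (limma adjusted p = 0.0395). VCAN and HMGB1, an extracellular matrix proteoglycan and a chromatin protein that can act as ligands when released, fell, with log2 fold changes of -1.27 and -0.45. Of the other matrix ligands, TNC rose with 0.24 and BGN had 0.03 (adjusted p = 0.822); both were named after their values were seen.

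LY96, the partner of TLR4 also called MD-2, had 145 ± 28.8 at 72 h and 144 ± 15.0 at 30 h (adjusted p = 0.983), so the partner was detected where TLR4 had almost no reads. SAA1 and SAA2, serum amyloid proteins that can activate TLR2 and that were named here after their values were seen, had too few reads to test. SAA1 had 2, 6 and 4 reads at 72 h and 1, 1 and 1 reads at 30 h, and SAA2 had 3, 6 and 4 reads at 72 h and 0, 1 and 1 reads at 30 h. The split between these near-identical copies is uncertain.

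Among 26 signalling genes downstream of the receptors, 25 were tested, and 15 rose, 4 fell and 6 did not pass (median 0.47). That is 60.0% rising and 16.0% falling, against 23.6% and 25.0% of all tested genes. As the list was chosen with earlier results of these data known, the shares describe these genes and test no enrichment. The kinases that MYD88 recruits went in both directions. IRAK2 had 1923 ± 50.6 normalised counts at 72 h and 470.04 ± 22.4 at 30 h, a 4.09-fold rise, while IRAK4, the kinase that MYD88 binds first, had 151 ± 22.9 at 72 h and 254 ± 8.26 at 30 h (log2 fold change -0.76, adjusted p = 0.000779). IRAK1, its substrate, and TRAF6, the ubiquitin ligase after it, fell with log2 fold changes of -0.31 and -0.37, and IKBKB, the catalytic kinase of NF-kB activation, with -0.41.

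Inhibitors of the pathway were among the signalling genes named for their change. IRAK3, which blocks release of IRAK kinases from MYD88, rose 7.73-fold, TNFAIP3, the deubiquitinase A20, 7.17-fold and NFKBIA, the NF-kB inhibitor, 2.87-fold. Of the other inhibitors, TOLLIP and SARM1 rose with log2 fold changes of 0.47 and 0.51, and SIGIRR had 0.39 (adjusted p = 0.334). On the TICAM1 branch TBK1, IKBKE and TRAF3 rose with 0.55, 1.06 and 0.80, while IRF3, the transcription factor at its end, had 0.10 (adjusted p = 0.246). These 7 genes were named after their values were seen.

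Among 23 inflammasome genes, 14 were tested, and 6 rose, 5 fell and 3 did not pass (median 0.06). That is 42.9% rising and 35.7% falling, against 23.6% and 25.0% of all tested genes. IL1B, whose precursor caspase 1 cleaves, had 89529 ± 16317 normalised counts at 72 h and 2048 ± 852 at 30 h and rose 46.3-fold (adjusted p = 0.000227), while CASP1 fell. NINJ1, which ruptures the membrane of dying cells, rose 4.72-fold. Of the sensors, NLRP1 fell with a log2 change of -0.66, while NLRP3 rose with 1.71 on 46 reads at 72 h against 12 at 30 h. CARD8 did not pass, with -0.23 (limma adjusted p = 0.153). NLRC4 was not tested and had 6, 2 and 12 reads at 72 h and 0, 0 and 1 at 30 h. SERPINB9, a protease inhibitor, fell with -0.68.

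GBP1 and GBP3, guanylate-binding proteins of which GBP1 brings caspase 4 to bacterial lipopolysaccharide, fell with -0.60 and -0.51, while GBP2 of the same family rose with 1.83. GSDMD, the pore protein that CASP1 and CASP4 cleave, had 167 ± 15.3 at 72 h and 113 ± 12.5 at 30 h, a log2 change of 0.56 with adjusted p = 0.0051. PYCARD, the adaptor between sensor and caspase 1, had 24.2 ± 6.65 at 72 h and 23.3 ± 3.48 at 30 h, and IL18 had 0 reads at 72 h and at most 2 at 30 h. NLRP3, CARD8, NLRC4, GBP2, GSDMD, PYCARD and IL18 were named after their values were seen.

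Of 6 other caspases, 4 were tested, and 2 fell and 2 did not pass. CASP6, an executioner of apoptosis, fell with a log2 change of -0.48 and CASP2, an initiator, with -0.23. CASP8 and CASP9, named after their values were seen, had log2 changes of 0.27 and 0.22 with limma adjusted p of 0.0509 and 0.261. These changes were smaller than that of CASP1, though the differences between genes were not tested.

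**Figure D4:**
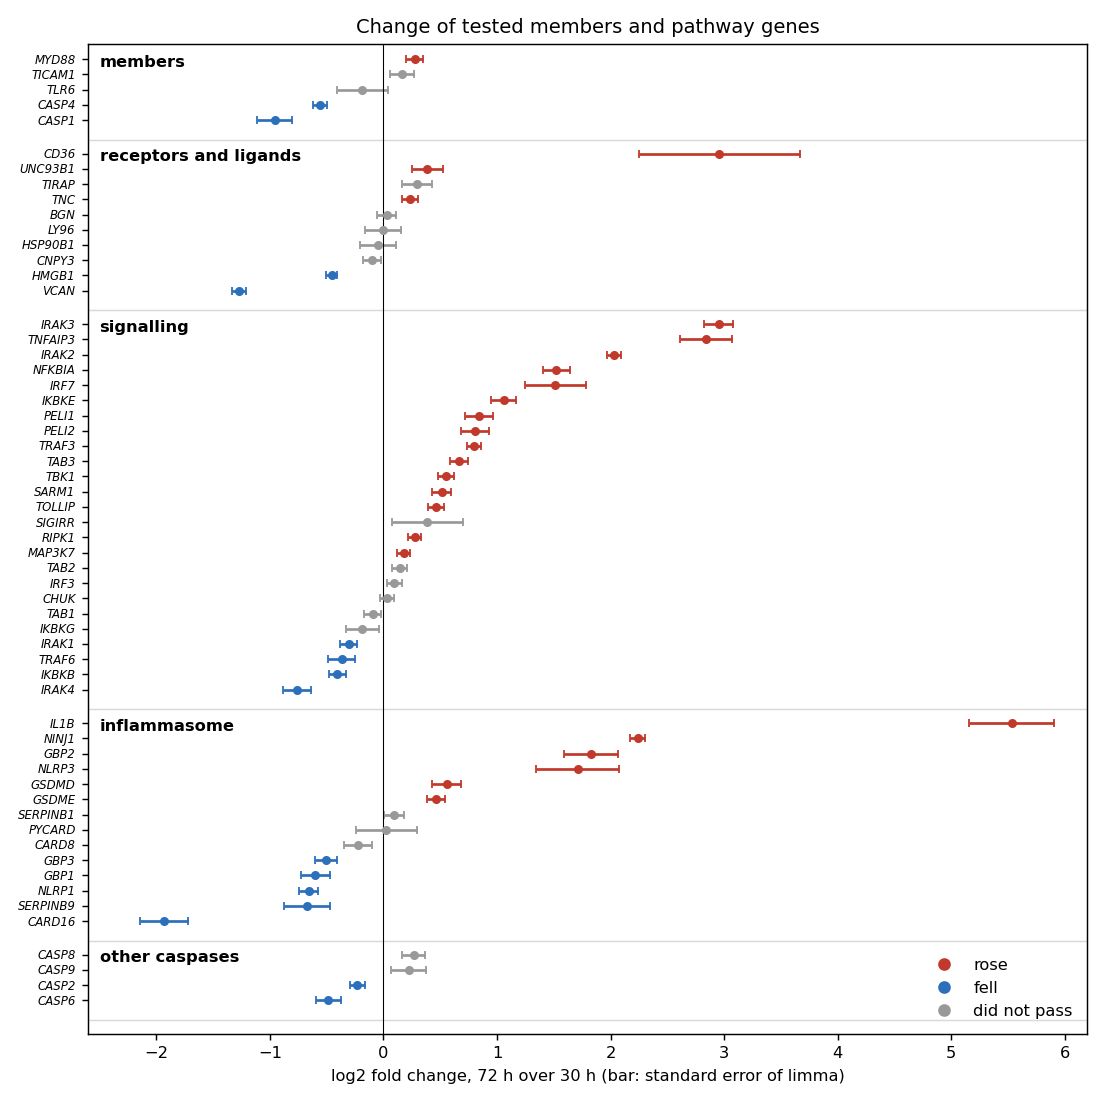
Log2 fold change of 72 h over 30 h (points; bars are the standard error of limma) for the 5 tested members and the 53 tested pathway genes by list, red where the gene rose, blue where it fell and grey where it did not pass. IL1B is farthest to the right at 5.53 and CARD16 farthest to the left at -1.93.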

How the data were processed

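The members and lists were chosen with earlier results of these data known. Per the submitters' processing notes, Trimmomatic 0.35, STAR 2.5.1b and DESeq2 1.18.1 were used, with genome build GRCh38 (hg38). The counter, annotation and strand setting were not given in the sources used here. Each gene has a deposited signal value per library, the number of reads after the authors' division by a size factor. All values (100%) were whole multiples, within 0.01, of the smallest value above 0, which gave back whole reads. Per the file headers it also holds the authors' log2 fold change, a score (the Wald statistic), a p-value and its adjusted value. The number of per-sample columns left out was 0.

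Normalised counts plus 1 were put on a log2 scale and compared with limma 3.58.1, with its trend and robust settings, under R 4.3.3, and fold changes are on that scale. Genes needed 10 normalised counts in 3 libraries. Alternatives used edgeR 4.0.16 and DESeq2 1.42.0 on the whole reads, which called 6493 and 5511 genes. The same steps were tested on simulated data. Within groups, replicates differed beyond sampling noise (chi-square per degree of freedom 3.13 to 14.9, against 100.02 to 146 between groups). Floors are 3 reads and, like counting intervals, cover counting error only.

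Genes named are the 10 members, from each list up to 4 called genes of largest change whose mean was 50 or more, list genes that changed against most of their list, and the 3 nearest patterns to the called member with the largest change. Of the other caspases list, 2 genes are not reported here and were left out of the list counts. Symbols are those of the table, except GSDME, listed as DFNA5. Coordinates of genes are from the table, and RefSeq starts can differ from them. Promoters are from RefSeq and matched 9 of 10 members; CASP1 was not matched.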

Additional observations from a re-analysis of the deposited data

How the results depend on the processing

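MYD88, CASP1, CASP4 and TICAM1 kept their direction and their side of the threshold under each of 17 alternatives, with log2 fold changes of 0.20 to 0.32, -1.09 to -0.76, -0.60 to -0.50 and 0.07 to 0.26. TLR6 did so under 16 of 17, the exception being the fit without both libraries of replicate C, given above. That fit also called 1 rising gene in the receptor and ligand list, against 3 with all libraries. The count was 2 with DESeq2, with quantile normalisation and with a filter of 50, and 2 to 3 without 1 library. The cause was not tested. The members called numbered 3, or 4 without a filter, with DESeq2 and in the authors' deposited table, where TLR2 entered, and without both libraries of replicate C, where TLR6 was called. The count of all genes changed ran from 5218 to 7081. Leaving out 1 library at a time gave 5218 to 6469 genes and 33 to 36 genes over the 4 lists. In the other caspases list, 1 gene that had not passed rose with a filter of 50 and with quantile normalisation, and 1 gene fell with DESeq2, in place of 2; leaving out 1 library gave 0 to 1 that rose and 1 to 2 that fell. The replicate block gave 6723 genes and changed no call of a member. Letters were not used as pairs, since the labels do not state that they pair cultures. After removal of group means, same-letter libraries correlated at 0.00696, 0.172 and 0.185 for A, B and C. Against a minimum of 0.1 set for pairing, B and C lay above and A below, so a pairing of letters is not settled. The log2 difference of the CASP1 to CASP4 ratio was -0.54 to -0.26 and that of MYD88 to TICAM1 0.03 to 0.19. At this depth, genes with under about 10 reads per library allow only intervals.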
